A study of Mus musculus with 16 samples.

Results

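The 10 genes described here are Hk1, Gpi1, Pfkp, Pkm, Ldha, Ldhb, Pdha1, Pdhb, Mpc1 and Mpc2, enzymes and carriers that take glucose to pyruvate and pyruvate into the mitochondrion. They are listed by name, as members of glycolysis and pyruvate use, and the rule that picks them uses no measured value. The list was made with earlier results of these data known, so it is not independent of them. All 10 were found in the deposited table, with 1 entry each, among 27987 gene names in 28618 entries. The study asked what happens in mouse oocytes that lose Psma7, which encodes an α subunit of the 20S core of the proteasome. Messenger RNA was measured by Smart-seq2 in 16 libraries, labelled as 5 oocytes each, in 4 groups of 4 libraries. WT GV oocytes came from C57BL/6 females labelled wildtype, and Psma7 cKO GV oocytes from C57BL/6 females labelled Zp3-Cre; Psma7 flox/flox, in both cases 3 to 4 weeks old and 44 h after 5 IU of PMSG. WT eggs and Psma7 cKO eggs were oocytes labelled metaphase II (MII), from females of the same 2 genotypes and ages. These females also received hCG 14 to 16 h before collection, and the cumulus cells of the eggs were removed with 0.3% hyaluronidase. The study reports that some ovulated Psma7 cKO oocytes extruded no polar body and that others were arrested at telophase I. How many such oocytes the egg libraries held is not known here, so genotype and incomplete maturation cannot be told apart in eggs. The labels do not say whether the WT females carried the floxed allele without Cre. Zp3-Cre is expressed in growing oocytes from the primary follicle on, so every other cell of a Psma7 cKO female kept its Psma7 alleles. All 16 libraries came from hormone-primed young females, and the labels do not tie oocytes or replicate numbers to single animals, so the p-values measure the spread between these libraries.

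Glycolysis splits glucose into pyruvate in the cytoplasm, and lactate dehydrogenase converts pyruvate and lactate into each other. The mitochondrial pyruvate carrier brings pyruvate into the mitochondrion, where the pyruvate dehydrogenase complex turns it into acetyl-CoA for the citric acid cycle. Mouse oocytes are known to use glucose poorly and to live on pyruvate, which cumulus cells supply, and on fatty acids. Fully grown GV oocytes are known to be transcriptionally silent, many of their mRNAs are degraded during maturation, and the poly(A) tails of others are lengthened or shortened, which matters for a method that captures mRNA by its tail.

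Psma7 was read first as the check of the labels. Its level was 165 ± 25.3 FPKM in the WT GV oocytes and 14.6 ± 2.82 FPKM in the Psma7 cKO GV oocytes (SD, n = 4), a log2 difference of -3.51 (adjusted p = 8.98e-07, limma). In eggs the WT level was 126 ± 32.1 FPKM and the Psma7 cKO level 39.7 ± 20.2 FPKM, a log2 difference of -1.83 (adjusted p = 0.0359), and the 4 Psma7 cKO egg libraries stood at 13.6, 50.3, 35.0 and 59.9 FPKM. Psma7 was called higher in Psma7 cKO eggs than in Psma7 cKO GV oocytes (log2 change 1.27, adjusted p = 0.0188), though the groups overlapped. The libraries held an estimated 10.5 to 15.7 M fragments, so that 1 fragment on a transcript of 1 kb was worth 0.0639 to 0.0950 FPKM. All 10 oocyte markers, among them Zp3 and Gdf9, were above 1 FPKM in every library. Of 16 cumulus and granulosa cell markers, 13 in GV oocytes and 14 in eggs stayed under 1 FPKM in every library of the stage, and the summed level ran from 13.6 to 16.0 FPKM in the WT GV oocytes, 15.5 to 17.6 in the Psma7 cKO GV oocytes, 15.6 to 18.2 in the WT eggs and 16.8 to 18.0 in the Psma7 cKO eggs, most of it Cyp19a1 and Nr5a2. Foxl2 and Amh, defining genes of granulosa cells, were at most 0.0259 and 0.0490 FPKM. Among markers of stroma, blood and vessels, Pecam1 ran from 7.37 to 17.3 FPKM over the 16 libraries, Cd68 from 1.14 to 3.83 and Dcn from 0.713 to 9.16, with Dcn at a mean of 1.87 FPKM in WT GV libraries, 3.02 in Psma7 cKO GV libraries, 7.80 in the WT eggs and 5.39 in the Psma7 cKO eggs, while Ptprc stayed at or below 0.0494 and Col1a1 near 0. The part of these markers in the results was not tested. Psma7 cKO egg replicate 3 stood apart from the other eggs, with 10013 entries at 1 FPKM or more against 9044 to 9666 in the other 7 egg libraries, so the main egg values below are also given without it.

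Along the route from glucose to acetyl-CoA the levels of the 10 genes in single libraries ran from listed at 0 to 4365 FPKM. FPKM is scaled to transcript length, so levels of different genes are set side by side here. Differences between genes in capture by the poly(A) tail, and the lengths used, could not be checked. The order of the genes is therefore approximate. In WT GV oocytes Ldhb was highest, at 3012 ± 301 FPKM, the entry at rank 5 of the whole table. Pkm followed at 163 ± 39.4, Pdhb at 76.7 ± 2.73, Mpc2 at 60.9 ± 11.4, Gpi1 at 27.6 ± 5.11, Pdha1 at 16.6 ± 1.51 and Pfkp at 1.18 ± 0.114 FPKM, and Ldha, Mpc1 and Hk1 were at 0.226 FPKM or less in each of these libraries. Pdhb and Mpc2 overlapped, since the highest Mpc2 value, 75.1 FPKM, lay above the lowest Pdhb value, 73.8 FPKM, whereas the other neighbours from Ldhb down to Pfkp did not. In WT eggs the order was Ldhb, Pdhb, Mpc2, Pkm, Pdha1, Gpi1 and Pfkp, with Pkm now under both pyruvate-using genes Pdhb and Mpc2, and Pkm and Pdha1 overlapped by 1 library each. The Psma7 cKO means followed the same order at each stage, from 2999 ± 301 FPKM for Ldhb to 13.4 ± 1.60 for Pdha1 and 1.17 ± 0.252 for Pfkp at the GV stage, and from 3389 ± 345 FPKM for Ldhb to 3.81 ± 1.12 for Gpi1 in eggs. Gpi1, Pkm, Ldhb and Pdhb have 1 near-identical copy each elsewhere in the genome (95% identity or more over at least 50% of the transcript), so part of their reads could have been assigned differently.

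**Figure D1:**
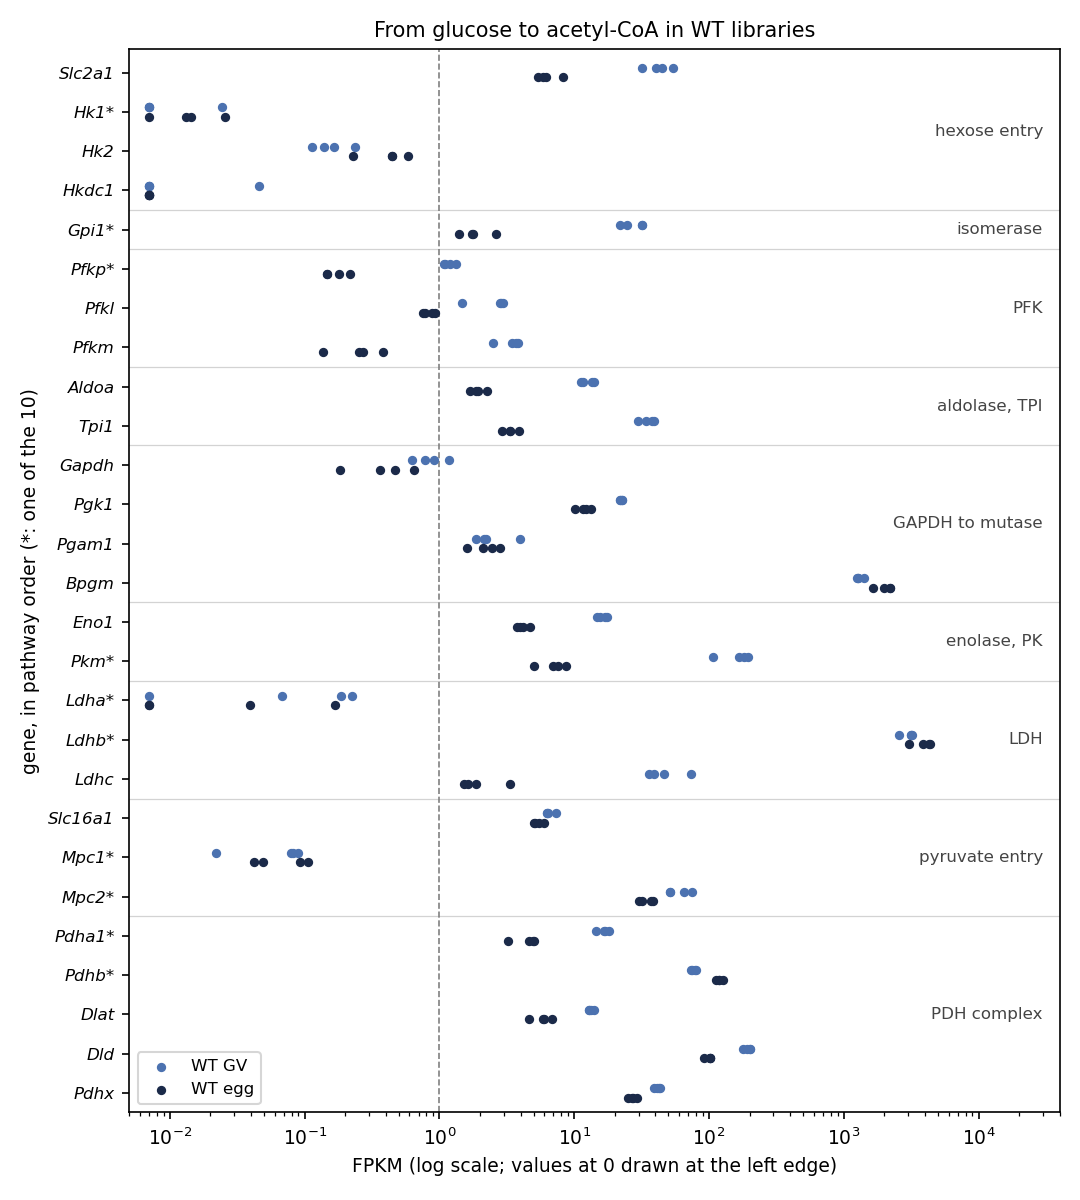
FPKM (log scale) of genes between glucose uptake and acetyl-CoA, in pathway order, in the 4 WT GV libraries (light blue) and the 4 WT egg libraries (dark blue), each point a library, values at 0 drawn at the left edge and the dashed line at 1 FPKM. Ldhb and Bpgm lie farthest to the right at both stages, the hexokinases shown lie under 1 FPKM, and Gpi1 and Pkm show the widest gap between stages among the 10 genes.

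**Figure D2:**
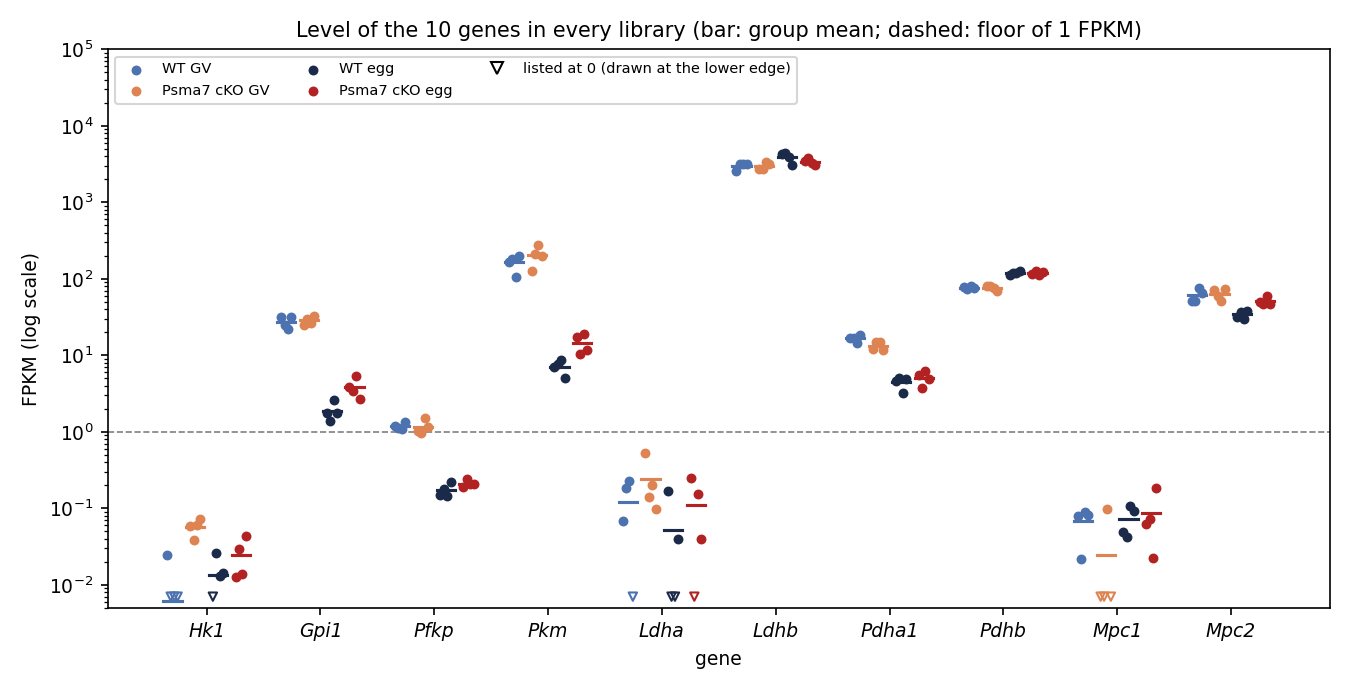
FPKM (log scale) of the 10 genes in all 16 libraries, coloured by group, with a bar at each group mean, open triangles for libraries in which a gene is listed at 0, and a dashed line at 1 FPKM. Hk1, Ldha and Mpc1 lie under the line in every library, and Pfkp crosses it in GV oocytes alone. Gpi1, Pkm and Mpc2 are the genes for which every Psma7 cKO egg library lies above every WT egg library. The Psma7 cKO egg mean is also above the WT egg mean for Hk1, Pfkp, Ldha, Pdha1 and Mpc1, whose libraries overlap.

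Glucose enters the pathway through hexokinase, which phosphorylates it. Hk1 (chr10:62268855-62379908, minus strand, GRCm38) was listed at 0 in 4 of 16 libraries and never passed 0.0715 FPKM. Its values were 0.0245, 0, 0 and 0 FPKM in the WT GV oocytes, 0.0588, 0.0385, 0.0601 and 0.0715 in the Psma7 cKO GV oocytes, 0, 0.0257, 0.0131 and 0.0143 in the WT eggs, and 0.0128, 0.0295, 0.0140 and 0.0429 in the Psma7 cKO eggs. All of them lie below what 1 fragment on a transcript of 1 kb was worth in the same library. The Hk1 transcript has 3851 bases, on which 1 fragment was worth less than that. The values thus stand for few fragments, and whether the genotypes differ was not tested. Hk2, the hexokinase of muscle and fat, was low too, at 0.113 to 0.236 FPKM in the WT GV oocytes, 0.121 to 0.226 in the Psma7 cKO GV oocytes, 0.228 to 0.586 in the WT eggs and 0.282 to 0.433 in the Psma7 cKO eggs. Adpgk, which phosphorylates glucose with ADP in place of ATP, was at 68.7 ± 11.3 FPKM in the WT GV oocytes and 37.2 ± 6.01 in the WT eggs.

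Pfkp (chr13:6579768-6648777, minus strand) encodes the platelet form of phosphofructokinase, the committed step of glycolysis. It was at 1.19, 1.11, 1.08 and 1.33 FPKM in the WT GV oocytes and 1.03, 0.968, 1.53 and 1.16 in the Psma7 cKO GV oocytes, and in every egg library under 0.240 FPKM. The genotypes overlapped at the GV stage, with a log2 difference of -0.01 (95% interval -0.40 to 0.37), where Pfkp could just be tested. In eggs it fell under the minimum mean of 1 FPKM and was not tested.

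Ldha (chr7:46841475-46855627, plus strand), the muscle form of lactate dehydrogenase, ran from 0 to 0.527 FPKM and was listed at 0 in 4 libraries. Mpc1 (chr17:8282904-8297661, plus strand), one of the 2 subunits of the mitochondrial pyruvate carrier, ran from 0 to 0.186 FPKM and was listed at 0 in 3. Neither reached 1 FPKM in any of the 16 libraries, so with Hk1 they entered no test. Ldha has 2 near-identical copies by the rule above, which could draw reads from it, and Mpc1 and Hk1 have none.

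The other 6 genes were measured in every library and carry the results. Because the libraries were primed with oligo-dT, the end of each transcript is where capture starts, and 30 bases around the polyadenylation signal (AATAAA or ATTAAA, in capitals) nearest to the annotated end are printed for them, 5′ to 3′, from the GENCODE M21 transcripts (GRCm38):
Gpi1: tgatggccagtcAATAAAaagacttggtac
Pkm: cacctgaatgtcAATAAAcagcagctgaag
Pdha1: aaaaggaaacgaATTAAActtgtttgattc
Mpc2: ccatttgtccatAATAAAccgtacttggtc
Pdhb: gttttgataaggAATAAAggggattcccac
Ldhb: agctcctgatcaAATAAAgttagcaattgc
Bpgm: tatccattttatAATAAAacgggcctttgg
Bpgm, a glycolysis gene that is not one of the 10, is shown for contrast. It has TTTTAT, a letter pattern of cytoplasmic polyadenylation elements, directly before its signal, as the window shows. None of the 10 genes has TTTTAT or TTTTAAT on the transcript strand in the last 100 bases of its principal transcript, whereas 18.6% of 15825 genes do, 30.6% of those called higher in the WT eggs than in the WT GV oocytes and 14.4% of those called lower. Pdhb and Ldhb, whose levels were higher in the WT eggs, have neither pattern there, and neither do the 4 genes that were lower. Ldhc, also outside the 10, was examined too and has neither pattern. No further gene outside the 10 was examined singly, and whether the 10 genes differ from these shares was not tested. TTTTAAT can share its last letters with the signal AATAAA. The annotated ends may not be those used in oocytes.

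Between the GV oocyte and the egg all 6 tested genes changed in WT, 4 downward and 2 upward. Pkm fell to 4.31% of its GV level, Gpi1 to 6.85%, Pdha1 to 26.8% and Mpc2 to 56.3%, while Pdhb rose to 155% and Ldhb to 129%. The background is wide, since 52.4% of 10475 entries tested were called lower and 26.1% higher in the WT eggs, so that 4 and 2 calls of 6 are not unusual in number. FPKM values are shares of a library and not amounts per cell, so a smaller number of molecules of one mRNA and a larger number of the others cannot be told apart. The median log2 change over all entries was -0.44 (-0.22 when libraries were rescaled by median ratios), and the median over the 6 genes was -1.37.

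Pkm (chr9:59656368-59679375, plus strand) encodes the muscle pyruvate kinase, the enzyme that makes pyruvate. In WT GV oocytes it stood at 167, 183, 107 and 196 FPKM, and in the WT eggs at 6.98, 7.58, 8.62 and 4.99 FPKM. The lowest GV library was more than 10 times above the highest egg library. The log2 change was -4.53 ± 0.21 (SE, adjusted p = 1.05e-08), or -4.09 relative to the median of all entries.

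Gpi1 (chr7:34201330-34230336, minus strand) encodes glucose-6-phosphate isomerase, which turns glucose-6-phosphate into fructose-6-phosphate. It went from 32.1, 24.5, 22.0 and 31.8 FPKM in the WT GV oocytes to 1.77, 1.40, 2.64 and 1.76 FPKM in the WT eggs. The 2 stages lay far apart, with a log2 change of -3.89 ± 0.20 (SE, adjusted p = 2.31e-08).

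Pdha1 (chrX:160122209-160138413, minus strand) and Pdhb (chr14:8165996-8173025, minus strand) encode the α and β subunits of pyruvate dehydrogenase E1, which join in equal numbers in the enzyme. Pdha1 was at 17.0, 16.7, 14.5 and 18.1 FPKM in the WT GV oocytes and 4.59, 5.03, 3.23 and 4.94 in the WT eggs, a log2 change of -1.92 ± 0.15 (SE, adjusted p = 6.49e-07). Pdhb was at 78.1, 73.8, 79.8 and 75.2 FPKM in the WT GV oocytes and 112, 118, 118 and 128 in the WT eggs, a log2 change of 0.63 ± 0.07 (SE, adjusted p = 1.06e-05). The mRNAs of the 2 subunits thus moved in opposite directions, and no library of one stage overlapped the other stage for either gene. The share of all entries without such overlap was not counted. Pdhb per Pdha1 was 4.66 ± 0.585 in the WT GV oocytes and 27.6 ± 6.10 in the WT eggs, and in Psma7 cKO libraries it was 5.72 ± 0.629 and 24.4 ± 6.71 (SD, n = 4), with a Psma7 cKO egg mean of 26.5 without replicate 3.

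Mpc2 (chr1:165460637-165481214, plus strand) encodes the other subunit of the mitochondrial pyruvate carrier. It was at 51.6, 51.6, 75.1 and 65.3 FPKM in the WT GV oocytes and 31.7, 37.1, 30.0 and 38.3 in the WT eggs, with no overlap. Its log2 change, -0.82 ± 0.14 (SE, adjusted p = 0.000226), was -0.38 relative to the median of all entries.

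Ldhb (chr6:142490249-142507957, minus strand) encodes the heart form of lactate dehydrogenase. It was at 2560, 3148, 3182 and 3157 FPKM in the WT GV oocytes and 4262, 4365, 3855 and 3024 in the WT eggs. WT egg replicate 4 fell inside the GV range. The log2 change was 0.36 ± 0.13 (SE, adjusted p = 0.0257), and it lost its call without WT GV replicate 1 or without WT egg replicate 1, 2 or 3 (adjusted p up to 0.0817). Ldhb made up 97.2 to 98.9% of the summed Ldha, Ldhb and Ldhc level in the WT GV oocytes and at least 99.9% in each of the WT eggs' libraries, where Ldhc, the testis form, went from 48.6 ± 17.1 to 2.10 ± 0.846 FPKM. Ldhb alone held 0.744 ± 0.0692% of the summed FPKM of WT GV oocytes and 0.978 ± 0.149% of that of WT eggs.

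The same 6 genes in Psma7 cKO oocytes gave 4 lower and 1 higher in eggs than in GV oocytes, against 51.0% and 23.0% of 10748 entries tested. The median log2 change over all entries was -0.42 (-0.17 rescaled). Of all calls, 31.1% were higher, and 42.0% after rescaling. Pkm changed by -3.79 ± 0.26 (SE, adjusted p = 3.25e-06), Gpi1 by -2.94 ± 0.20 (adjusted p = 2.95e-06), Pdha1 by -1.42 ± 0.17 (adjusted p = 6.51e-05) and Pdhb by 0.64 ± 0.08 (adjusted p = 8.67e-05) on the log2 scale. Ldhb, at 0.18 ± 0.11 (adjusted p = 0.165), was not called, although it was after rescaling (0.43, adjusted p = 0.00773). Mpc2 was called at -0.33 ± 0.13 (adjusted p = 0.0478), but its change was 0.09 above the median of all entries, it was not called after rescaling (-0.08, adjusted p = 0.587), and its groups overlapped. It also lost the call without Psma7 cKO GV replicate 1, 2 or 4 or Psma7 cKO egg replicate 1, 2 or 4 (adjusted p up to 0.125). Without Psma7 cKO egg replicate 3 the same count of 5 was called, with Mpc2 at -0.41 (adjusted p = 0.0203).

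**Figure D3:**
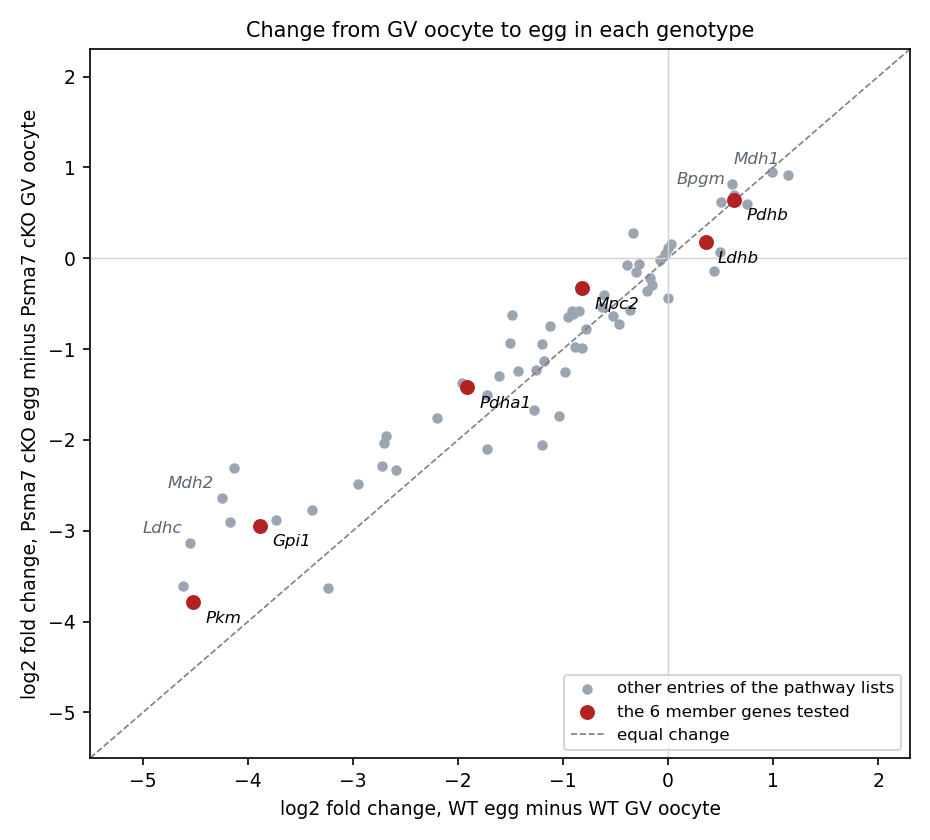
Log2 fold change from GV oocyte to egg in WT (horizontal axis) and in Psma7 cKO (vertical axis) for the 6 tested genes of the 10 (red) and the other tested entries of the pathway lists (grey), with a dashed line where both changes are equal. Pkm at -4.53 and -3.79 and Gpi1 at -3.89 and -2.94 lie above the line at the lower left, and Pdhb at 0.63 and 0.64 lies on it.

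Before maturation no genotype difference among the 10 genes passed the test. Of the 7 tested in GV oocytes, 0 were called by limma, where 0.0994% of 11062 entries were called higher and 0.0181% lower, and 1 of 7 had an unadjusted p under 0.05. That gene was Pdha1, at 12.2, 14.7, 14.9 and 11.8 FPKM in the Psma7 cKO GV oocytes against the 14.5 to 18.1 of WT, a log2 difference of -0.31 ± 0.12 (SE, adjusted p = 0.379). Pkm was at 127, 213, 275 and 199 FPKM in the Psma7 cKO GV oocytes, a log2 difference of 0.30 with a 95% interval of -0.22 to 0.83. Gpi1, at 25.2, 30.2, 26.4 and 32.5 FPKM, and Mpc2, at 70.9, 59.0, 51.6 and 73.4 FPKM, overlapped WT, with log2 differences of 0.06 and 0.07. Ldhb and Pdhb had log2 differences of -0.01 each, with intervals of -0.25 to 0.24 for Ldhb and -0.20 to 0.17 for Pdhb, which do not reach 1 log2 unit in either direction.

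In eggs 3 of the 6 tested genes, Mpc2, Pkm and Gpi1, were higher in Psma7 cKO than in WT and none was lower, where 6.53% of 9492 entries were called higher and 1.49% lower. Of all calls 81.5% were higher, and 71.1% after rescaling. Pkm, at 17.5, 10.5, 18.9 and 11.7 FPKM in the Psma7 cKO eggs against 4.99 to 8.62 in the WT eggs, was 2.05 times higher, a log2 difference of 1.04 ± 0.23 (SE, adjusted p = 0.0345). Gpi1, at 3.87, 3.36, 5.33 and 2.69 FPKM against 1.40 to 2.64 in WT, was 2.01 times higher, a log2 difference of 1.01 ± 0.25 (SE, adjusted p = 0.0443), with the lowest Psma7 cKO library just above the highest WT library. Mpc2, at 49.2, 46.9, 59.1 and 46.8 FPKM against 30.0 to 38.3 in WT, was 1.47 times higher, a log2 difference of 0.56 ± 0.11 (SE, adjusted p = 0.0292). Every Psma7 cKO egg library was above every WT egg library for each of these 3 genes, and replicate 3 was highest in all of them. This separation comes from the same values as the calls, and the share of all entries that separate in this way was not counted.

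These 3 calls lie close to the threshold and depend on single libraries. Without Psma7 cKO egg replicate 3, the log2 differences were 0.48 for Mpc2 (adjusted p = 0.0428), 0.90 for Pkm (adjusted p = 0.0614) and 0.83 for Gpi1 (adjusted p = 0.0791), so that 1 call was left. Without any single WT egg library, or without Psma7 cKO egg replicate 1, 0 of the 6 were called, with adjusted p up to 0.122. The log2 differences of these 3 genes stayed between 0.50 and 1.18 there. How far incomplete maturation of the Psma7 cKO eggs enters these differences was not tested.

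Pdhb was level between WT and Psma7 cKO eggs, at 115, 124, 113 and 124 FPKM in the Psma7 cKO eggs and a log2 difference of -0.0003 with a 95% interval of -0.15 to 0.15. Ldhb, at 3462, 3836, 3219 and 3038 FPKM in the Psma7 cKO eggs, had a log2 difference of -0.18 (interval -0.47 to 0.10, adjusted p = 0.365). Pdha1, at 5.46, 3.70, 6.19 and 4.95 FPKM, had one of 0.19 (interval -0.26 to 0.64, adjusted p = 0.561). For these 3 genes the genotypes overlapped, and without Psma7 cKO egg replicate 3 the log2 differences were 0.02 for Pdhb, -0.16 for Ldhb and 0.08 for Pdha1, again not called. Pfkp in the Psma7 cKO eggs was at 0.190, 0.239, 0.207 and 0.205 FPKM and in the WT eggs at 0.148, 0.179, 0.146 and 0.218 FPKM, all below the level tested.

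**Figure D4:**
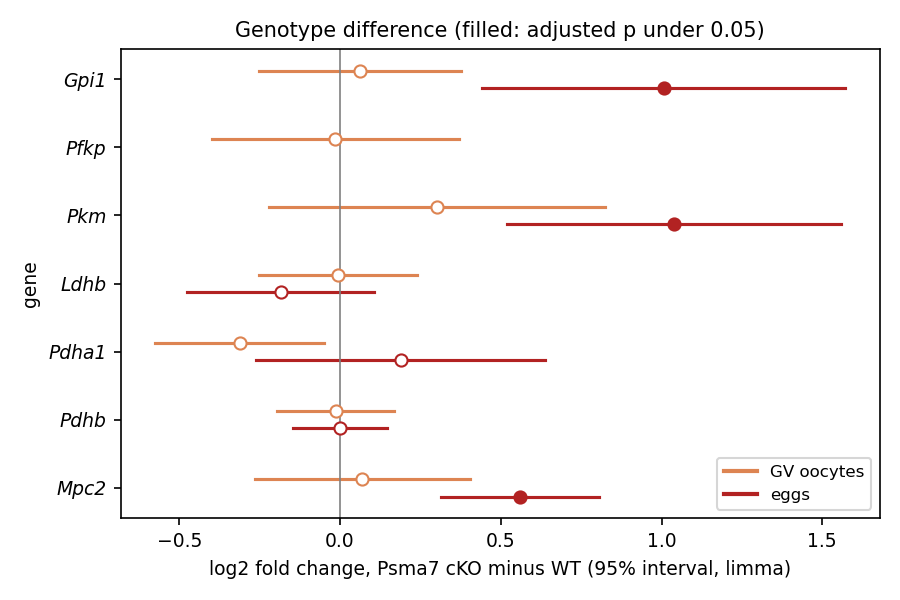
Log2 fold change between Psma7 cKO and WT with its 95% interval from limma, for each tested gene in GV oocytes (orange) and eggs (red), with filled points where the adjusted p was under 0.05. Gpi1, Pkm and Mpc2 in eggs are the filled points, and the GV interval of each of the 7 genes but Pdha1 spans 0.

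Whether the genotype difference itself differed between stages was tested as an interaction over all 16 libraries. Of the 6 genes, 0 passed, where 1.07% of 10615 entries were called higher and 0.188% lower, and 3 of 6 had an unadjusted p under 0.05. The estimates were 0.94 ± 0.30 for Gpi1 (SE, adjusted p = 0.115), 0.74 ± 0.36 for Pkm (adjusted p = 0.303), 0.50 ± 0.24 for Pdha1 (adjusted p = 0.282), 0.49 ± 0.20 for Mpc2 (adjusted p = 0.212), 0.01 for Pdhb and -0.18 for Ldhb on the log2 scale. Without Psma7 cKO egg replicate 3 the estimates for Gpi1 and Pkm were 0.77 and 0.60, and again 0 of 6 passed. A difference seen in eggs and not in GV oocytes was therefore not shown to differ between the stages for any of the 10 genes.

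Set against the mean GV level of the same genotype, Gpi1 stood at 6.85 ± 1.91% in the WT eggs and 13.3 ± 3.92% in the Psma7 cKO eggs (SD, n = 4). Pkm stood at 4.31 ± 0.935% and 7.19 ± 2.05%, Pdha1 at 26.8 ± 5.02% and 37.9 ± 7.82%, and Mpc2 at 56.3 ± 6.60% and 79.2 ± 9.17%. By this measure the genotypes overlapped for Gpi1, Pkm and Pdha1 by their single libraries, and for Mpc2 they did not. The GV mean was held fixed, so these SDs and overlaps leave out the spread of the GV libraries. The interaction above, which includes that spread, did not pass for Mpc2. Psma7 cKO egg replicate 3 held the highest share of all 4 genes, and without it the Psma7 cKO means were 11.6% for Gpi1, 6.50% for Pkm, 35.1% for Pdha1 and 74.7% for Mpc2. Pdhb stood at 155 ± 8.36% in the WT eggs and 156 ± 7.93% in the Psma7 cKO eggs, and Ldhb at 129 ± 20.2% and 113 ± 11.5%. Ldhb per Pkm, a ratio of FPKM values, went from 19.6 ± 6.80 in the WT GV oocytes to 560 ± 76.8 in the WT eggs, and from 15.6 ± 4.30 to 248 ± 86.6 in Psma7 cKO libraries, where the 4 egg values from 170 to 366 all lay under the WT egg values from 447 to 611. Without Psma7 cKO egg replicate 3 that mean was 274, and the ratio was not tested. The ratio uses the same Pkm values as the egg call above, and how often other ratios separate in this way was not counted.

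**Figure D5:**
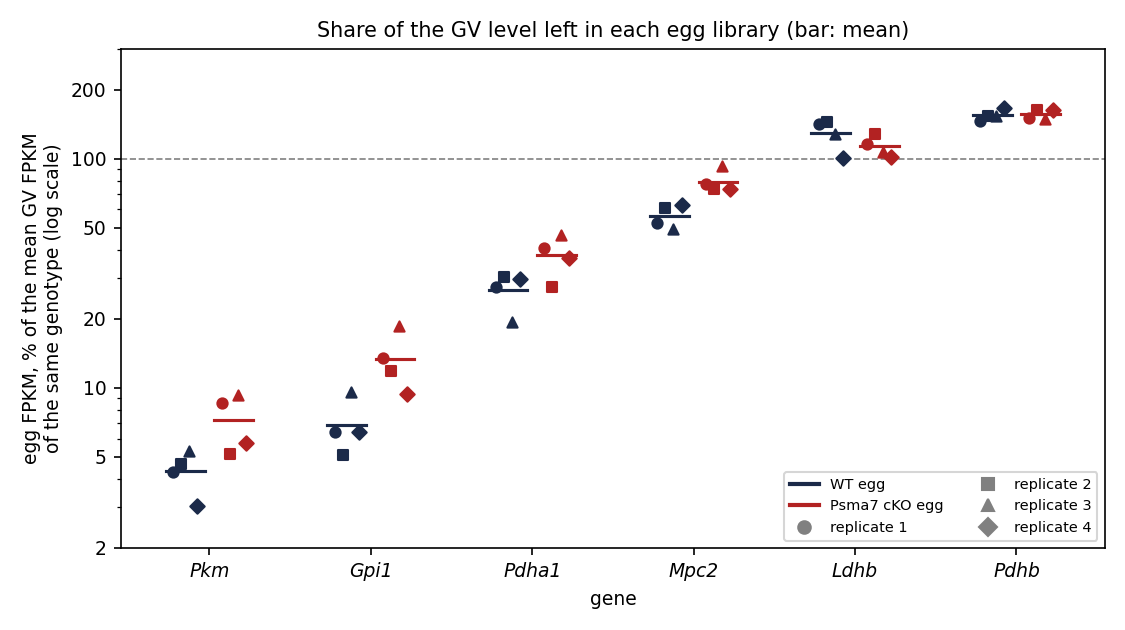
Egg FPKM as a percent of the mean GV FPKM of the same genotype (log scale) for the 6 tested genes in each WT egg library (dark blue) and Psma7 cKO egg library (red), with the replicate given by the shape of the point and bars at the means. Replicate 3 of the Psma7 cKO eggs (triangle) is highest for Pkm, Gpi1, Pdha1 and Mpc2, and Pdhb and Ldhb lie above 100% in both genotypes.

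On log2 values over the 16 libraries, Gpi1 and Pkm had a Pearson's r of 0.987 and Pkm and Pdhb one of -0.971, both set mainly by the gap between the 2 stages. The nearest of the 6 to Mpc2 was Gpi1 at 0.801, and the nearest to Ldhb was Pdhb at 0.539. Of 10615 entries compared, the nearest pattern was that of Calu for Gpi1 (r = 0.995), Ccdc92 for Pkm (0.999), Ift52 for Pdha1 (0.980), Dad1 for Mpc2 (0.983), Rab8b for Pdhb (0.986) and Gm1673 for Ldhb (0.910). Dad1 had group means of 82.8 FPKM in the WT GV oocytes, 82.4 in the Psma7 cKO GV oocytes, 51.3 in the WT eggs and 68.4 in the Psma7 cKO eggs. These values are a description of 16 points that share 2 stages.

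The rest of the pathway was taken from 8 lists of 100 genes, of which 95 were in the table in 101 entries. In WT maturation 44 of 61 tested entries fell and 7 rose, with a median log2 change of -0.92 beside -0.44 for all entries, of which 52.4% were called lower and 26.1% higher. The rising entries were Bpgm, Pdpr, Suclg2, Rpia, Mdh1, Taldo1 and Emb. Bpgm, which makes and breaks down 2,3-bisphosphoglycerate, was the most abundant of the lists and went from 1303 ± 76.6 FPKM in the WT GV oocytes to 2019 ± 274 in the WT eggs, a log2 change of 0.62 (adjusted p = 0.000278), while Pgam1, the usual phosphoglycerate mutase, was at 4.10 FPKM or less in every library. Mdh1, the cytoplasmic malate dehydrogenase, went from 111 ± 8.68 to 245 ± 6.33 FPKM, whereas Mdh2, the mitochondrial one, went from 150 ± 6.82 to 7.99 ± 1.33 FPKM. In Psma7 cKO maturation 44 of 62 entries fell and 7 rose, with a median of -0.76 beside -0.42, and 51.0% of all entries called lower and 23.0% higher.

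In WT maturation 5 of 6 tested entries of sugar and monocarboxylate transport fell and 1 rose, 8 of 12 of the pyruvate dehydrogenase complex and its control fell and 1 rose, and 3 of 7 of the pentose phosphate pathway fell and 2 rose. Slc2a1, the main glucose transporter GLUT1, went from 42.7 ± 9.05 to 6.42 ± 1.27 FPKM, and G6pdx, which opens the pentose phosphate pathway, from 321 ± 22.6 to 41.6 ± 3.95 FPKM. Bsg, the chaperone of monocarboxylate carriers, went from 40.5 ± 3.19 to 19.0 ± 4.61 FPKM. Dld, the E3 subunit of the pyruvate dehydrogenase complex, went from 193 ± 10.5 to 99.6 ± 4.95 FPKM, and Pdhx, which anchors E3, from 41.5 ± 1.97 to 27.2 ± 1.55 FPKM. All of these changes were called by limma (adjusted p at most 8.05e-05), so that in the dehydrogenase complex Pdhb rose while Pdha1, Dld and Pdhx fell. Taldo1 of the pentose phosphate pathway rose from 101 ± 8.48 to 143 ± 5.52 FPKM, and Me1, the cytoplasmic malic enzyme that makes pyruvate, was at 271 ± 20.5 and 257 ± 6.40 FPKM (adjusted p = 0.357). Gapdh was at 1.33 FPKM or less in every library, but 70 near-identical genes exist, 52 of them in the table, so its level is uncertain.

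Between the genotypes 0 of 63 pathway entries were called by limma in GV oocytes, and 6 had an unadjusted p under 0.05. In eggs 9 of 58 were higher in Psma7 cKO and 1 was lower, with a median log2 difference of 0.21 beside 0.07 for all entries, of which 6.53% were called higher and 1.49% lower. In glycolysis these were Aldoa, which splits fructose-1,6-bisphosphate (1.93 ± 0.237 against 3.35 ± 0.777 FPKM, adjusted p = 0.0430), and an entry of Eno1, enolase (4.15 ± 0.381 against 6.01 ± 0.778 FPKM, adjusted p = 0.0442), which shares near-identical sequence with 3 other genes. The citric acid cycle gave 6 of 16 higher, among them Idh3a, Idh3b, Fh1, Mdh2 and Dlst, with log2 differences from 0.34 for Idh3a to 1.63 for Mdh2. An entry of Slc25a11, the mitochondrial 2-oxoglutarate carrier, was also higher (log2 difference 0.88, adjusted p = 0.0331), and Slc2a10, a glucose transporter, was the lower entry, at 2.09 ± 0.148 FPKM in WT and 1.38 ± 0.0672 in the Psma7 cKO eggs (adjusted p = 0.0310). Of 11 tested entries of the pyruvate dehydrogenase complex and its control, 0 passed in limma and 2 had an unadjusted p under 0.05. Without single libraries the number of pathway entries called in eggs ran from 0 to 15. It was 0 without WT egg replicate 1 or 3, 1 without WT egg replicate 4, 2 without WT egg replicate 2, and 5 without Psma7 cKO egg replicate 1 or 3. Without replicate 3 the 5 were Idh3a, Idh3b, Fh1, Mdh2 and Dlst, with Mdh2 at a log2 difference of 1.32, and Aldoa, Eno1, Slc25a11 and Slc2a10 were not called (adjusted p from 0.0575 to 0.0927).

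Mdh2 was the entry of the lists that passed the interaction, among 62 tested. Its values were 150 ± 6.82 FPKM in the WT GV oocytes, 153 ± 5.03 in the Psma7 cKO GV oocytes, 7.99 ± 1.33 in the WT eggs and 26.9 ± 13.9 in the Psma7 cKO eggs, with an interaction of 1.61 on the log2 scale (adjusted p = 0.0324). It kept 5.32 ± 0.883% of its GV level in the WT eggs and 17.6 ± 9.10% in the Psma7 cKO eggs, where replicate 3 held 30.4% and the mean without it was 13.3%. The interaction without it was 1.30 (adjusted p = 0.0123). The number of list entries that passed the interaction was 0 without WT GV replicate 1, any one Psma7 cKO GV library, or WT egg replicate 1 or 4, was 2 without WT GV replicate 2, 3 without Psma7 cKO egg replicate 1 and 9 without Psma7 cKO egg replicate 2, and was 1 without each other library.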

How the data were processed

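The authors aligned Smart-seq2 reads to mm10 and deposited FPKM values per gene; their processing notes name TopHat2 2.1.1 and Cufflinks 2.2.1, and the gene annotation is not given in the sources used here. ERCC RNA was added at lysis, but the table has 0 ERCC entries, so values are shares of a library. The labels give 5 oocytes per library, whereas the study's methods give 10. Here, FPKM below 1 were set to 1 and log2 transformed, entries averaging less than 1 FPKM in the libraries of a comparison were left out, and groups were compared with limma 3.58.1 (R 4.3.3; empirical Bayes with an intensity trend), with Benjamini-Hochberg adjustment over all entries tested and a threshold of 0.05. Fold changes are on this floored log2 scale and understate those of genes near 1 FPKM. The fit was tested on simulated data. Each stage or genotype comparison used its own 8 libraries, and the interaction all 16. Fragments per library were estimated from the steps between low FPKM values of single-transcript genes. Gene positions and transcript ends came from GENCODE M21 (GRCm38, the same build as mm10), and near-identical copies from blastn 2.17.0. The 10 genes and the pathway lists were chosen with earlier results of these data known. Named besides the 10 were list genes called between genotypes or in the interaction, the 2 with the highest mean in each list, the nearest pattern of each gene, and the genes needed to read a level (Gapdh, Pgam1, Hk2, and those that rose in WT maturation), the last chosen after their values were seen. Same-numbered replicates were checked for pairing, which the labels neither state nor deny. Some list genes are not reported here by name.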

Additional observations from a re-analysis of the deposited data

Results flagged for a closer look

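Among 144 sets of 4 libraries (the 10 genes and the named genes of the pathway), 9 held a library far from the other 3 by Dixon's test at the 95% level, and chance alone flags about 1 in 20. Of the 10 genes, Ldhb was low in WT GV replicate 1, at 2560 FPKM against 3148 to 3182 in the other 3. The other flags among the 10 concern levels near 0, namely Hk1 in WT GV replicate 1 (0.0245 FPKM), Mpc1 in WT GV replicate 2 (0.0218 FPKM) and Mpc1 in Psma7 cKO GV replicate 3 (0.0977 FPKM). In the pathway lists, Ldhc in Psma7 cKO egg replicate 3 was at 14.1 FPKM and Got2, the mitochondrial aspartate aminotransferase, at 10.9 FPKM in the same library, both the highest of their group. Aldoa was at 11.8 FPKM in Psma7 cKO GV replicate 4, Dld at 92.2 FPKM in WT egg replicate 1 and Ldhd at 16.7 FPKM in WT GV replicate 3, each the lowest of its group.

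Mdh2 differed in its genotype difference between stages, with an interaction of 1.61 on the log2 scale (adjusted p = 0.0324, limma).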

How the results depend on the processing

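Of 566 log2 differences of the 10 genes recomputed under other settings, 501 kept their direction and side of the threshold, 40 lost the call, 1 gained it and 24 changed sign. Of 184 recomputed counts of calls, 155 stayed within 1.5 times and 29 did not. The 3 calls among the 6 genes in eggs became 1 with no filter on low values and 0 with a replicate block, and ran from 0 to 3 when single libraries were left out. The replicate block left 1 pathway entry called in eggs in place of 10, and 0 in place of 1 in the interaction. Same-numbered replicates had correlations of their deviations from -0.50 to 0.29, so no common pairing showed in the values. The labels do not say whether the numbers mark a shared litter or batch, and these correlations cannot settle it. Which of the 2 fits is the better one was therefore not decided. Fitting all 16 libraries together called 22 pathway entries in eggs. Leaving out single libraries gave 0 to 15 pathway entries in eggs and 0 to 9 in the interaction, which gave 2 with a floor of 0.1 FPKM and 3 with a minimum mean of 5 FPKM. Directions that reversed belonged to differences near 0. In GV oocytes, leaving out single libraries gave log2 differences of -0.041 to 0.14 for Gpi1, -0.15 to 0.057 for Pfkp, -0.082 to 0.036 for Ldhb, -0.040 to 0.036 for Pdhb and -0.0042 to 0.18 for Mpc2. For Pdhb they were -0.029 to 0.034 in eggs and -0.036 to 0.047 in the interaction, which was -0.016 after rescaling. The cause of these changes was not tested. Hk1, Ldha and Mpc1 in all libraries and Pfkp in eggs fell under the minimum mean of 1 FPKM, so no difference in them was tested.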
